A study of Homo sapiens with 12 samples.

Results

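Transcript levels of 40 interferon-stimulated genes were described in islet-like cells lacking NKX2-2 or CLEC16A. The members were chosen by gene name, and all 40 were found among the 60624 genes of the deposited count tables. The list was drawn up with earlier results of these data known, so it is described by counts and values, and no test of the list was made. The cells came from expandable pancreatic progenitors (ePPs) of MEL1, a human embryonic stem cell line, and were collected at day 8 in R6 medium. R6 holds, among other additions, a TGF-beta receptor inhibitor, thyroid hormone (T3), the BMP inhibitor LDN-193189, the gamma-secretase inhibitor Compound E and forskolin. The progenitors had been grown on feeder cells, in a medium with EGF, bFGF, the same TGF-beta receptor inhibitor and the BET inhibitor I-BET151. The 12 bulk RNA-seq libraries fall into 4 groups of 3: NKX2-2 knockout (KO) with its own wild type (WT), and CLEC16A KO with its own WT. No interferon was named among the additions. The labels name no clone, so differences between cell lines and effects of the knockout cannot be told apart, and they do not say whether replicates were separate cultures, so the p-values measure a spread that may be technical.

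The deposited counts added up to between 16157481 and 20649976 per library in the NKX2-2 experiment and between 31364272 and 33763795 in the CLEC16A experiment. The transcripts of the targeted genes were still counted: in NKX2-2 KO the NKX2-2 transcript changed by -0.32 ± 0.12 on the log2 scale (SE, adjusted p = 0.061), and in CLEC16A KO the CLEC16A transcript changed by 0.18 ± 0.09 (adjusted p = 0.0949). A transcript can persist when its protein is lost, and the labels do not give the edits, so these counts do not check the knockouts. Endocrine markers were detected in every library, and INS, GCG and CHGA were among them. In the NKX2-2 experiment WT replicate 3 stood apart from the others of its group. KO replicate 3 stood apart little more than KO replicate 1 did. Results without both libraries numbered 3 are given below. Levels are given in CPM, read counts divided by the TMM-adjusted size of their library. Fold changes are KO over WT, on a log2 scale with their standard error (SE), and adjusted p-values come from edgeR's quasi-likelihood test with Benjamini-Hochberg adjustment over all genes tested, with a threshold of 0.05.

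Interferons are secreted proteins that warn neighbouring cells of infection. Type I and type III interferons act through receptors coupled to JAK1 and TYK2 and switch on ISGF3, a complex that includes STAT2 and IRF9 and binds the interferon-stimulated response element (ISRE). Type II interferon acts through the gamma-activated site (GAS) and drives IRF1 and the guanylate-binding proteins most. Most of the genes that follow encode antiviral effectors; others (IRF7, IRF9, STAT2, IFIH1) are parts of the pathway itself and so feed back on it. An interferon signature is known in islets of people with recent type 1 diabetes, and IFIH1 and CLEC16A lie in regions linked to the risk of that disease.

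The ISRE and GAS are the DNA elements of the pathway described above. Promoter stretches with their letters are shown for the members with the smallest p in each experiment that have an ISRE upstream of the start. ISG15 and IRF1 are shown as well. Capitals mark the ISRE core (GAAA, any 2 bases, GAAA, on either strand, so that TTTC, 2 bases, TTTC is the same core read on the other strand) or, for IRF1, the GAS (TTCNNNGAA, which reads the same way on both strands). Sequences run 5′ to 3′ along the gene and come from RefSeq (build GRCh38.p14).
MX1 at chr21:41431842-41431875 (plus strand): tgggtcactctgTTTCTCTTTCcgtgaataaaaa
IFI6 at chr1:27672264-27672360 (minus strand): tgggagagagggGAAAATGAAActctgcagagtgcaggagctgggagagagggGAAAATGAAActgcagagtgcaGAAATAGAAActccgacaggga
IFI44L at chr1:78620363-78620396 (plus strand): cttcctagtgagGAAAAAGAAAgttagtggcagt
GBP1 at chr1:89065314-89065347 (minus strand): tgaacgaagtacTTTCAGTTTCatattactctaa
PARP14 at chr3:122680798-122680831 (plus strand): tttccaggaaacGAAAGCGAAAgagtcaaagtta
IFIT3 at chr10:89327829-89327896 (plus strand): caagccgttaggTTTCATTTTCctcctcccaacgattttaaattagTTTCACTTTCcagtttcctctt
ISG15 at chr1:1013372-1013411 (plus strand): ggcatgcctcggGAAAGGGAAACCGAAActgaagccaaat
IRF1 at chr5:132490877-132490909 (minus strand): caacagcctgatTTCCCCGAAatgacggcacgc

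MX1, IFI6 and IFI44L fell most clearly in NKX2-2 KO and GBP1, PARP14 and IFIT3 rose most clearly in CLEC16A KO, among members with such a core. IFI6 has 3 cores within 97 bases, and the cores of ISG15 overlap each other. A further core of IFI44L, at -164 to -155 from the same start, lies outside the stretch shown. Of the 40 members, 30 had a promoter in the table (250 bases before to 50 bases after a start), with 38 starts in all. An ISRE core lay in a promoter of 22 of these 30 members, and in a promoter of 4.38% of all 27305 genes in the table. A stricter ISRE, with CT after the core, lay in a promoter of 14 of the 30 and of 0.32% of all genes. A GAS lay in a promoter of 9 of the 30, and of 9.38% of all genes. A match describes letters and not binding.

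**Figure D1:**
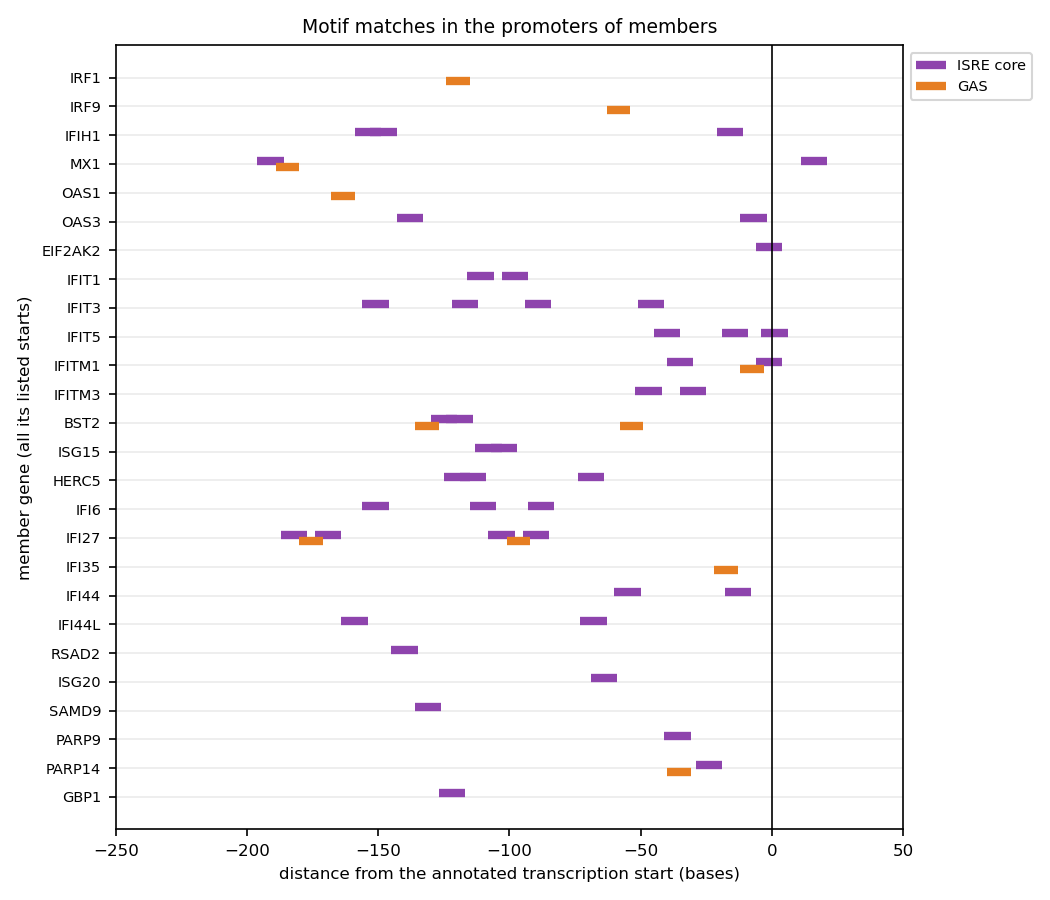
Positions of ISRE cores (purple) and GAS (orange) from 250 bases before to 50 bases after the annotated transcription starts of members that hold a match, in bases from the start. Starts of a gene are overlaid. Most ISRE cores lie upstream of the start, and IFI6, IFIH1, HERC5 and IFIT5 have 3 each at a single start. IFIT3 and IFI27 show more ISRE marks than these, because cores of different starts are overlaid.

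In NKX2-2 KO the interferon-stimulated genes were lower. Of the 39 members tested, 30 fell, 1 rose (IFITM2) and 8 did not pass the test, while OASL had too few counts to be tested. Among all 17436 genes tested in that experiment, 33.4% were called, 16.6% higher and 16.8% lower. The median log2 fold change of the members was -1.21, beside 0.03 for all genes tested. CPM of the KO and WT libraries did not overlap for 35 of the 40 members, against 45.5% of all genes tested.

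In CLEC16A KO the larger part of the members was higher. All 40 were tested: 25 rose, 8 fell and 7 did not pass. Among all 19958 genes tested, 45.0% were called, 23.7% higher and 21.3% lower. The median of the members was 0.37, beside -0.01 for all genes tested, and groups did not overlap for 34 of 40 members, against 53.8% of all genes. The rises are smaller under the other unit: with limma on log2(TPM + 1), which moves the median of all genes to -0.12, 18 of 38 members tested rose and 7 fell, while 3047 of all genes were higher and 4702 lower, against 4732 and 4253 with edgeR.

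The summed CPM of the 40 members was 795.9, 795.3 and 837.5 in NKX2-2 KO, against 1846, 1896 and 2030.0 in its WT. In CLEC16A KO it was 1901, 1842 and 1834, against 1558, 1562 and 1529 in its WT. Neither pair of groups overlapped, and the sum went down in one experiment and up in the other. On the deposited TPM scale the CLEC16A sums did overlap, with 2706, 2657 and 2365 TPM in KO, against 2671, 2707 and 2556 TPM in WT. The panel of summed levels shows these sums beside those of marker genes.

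**Figure D2:**
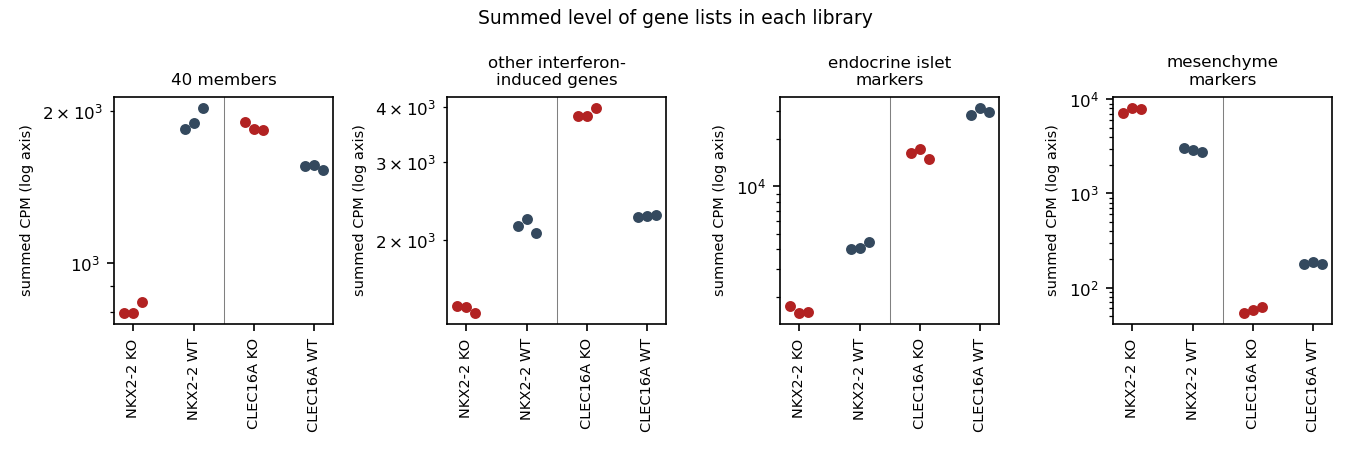
Summed CPM (log axis) of the 40 members, of 44 other interferon-induced genes, of 13 endocrine islet markers and of 10 mesenchyme markers, 1 point per library, KO (red) left of WT (dark) in each experiment. Member sums are lowest in the NKX2-2 KO libraries (795.3 to 837.5), and mesenchyme sums are highest there.

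**Figure D3:**
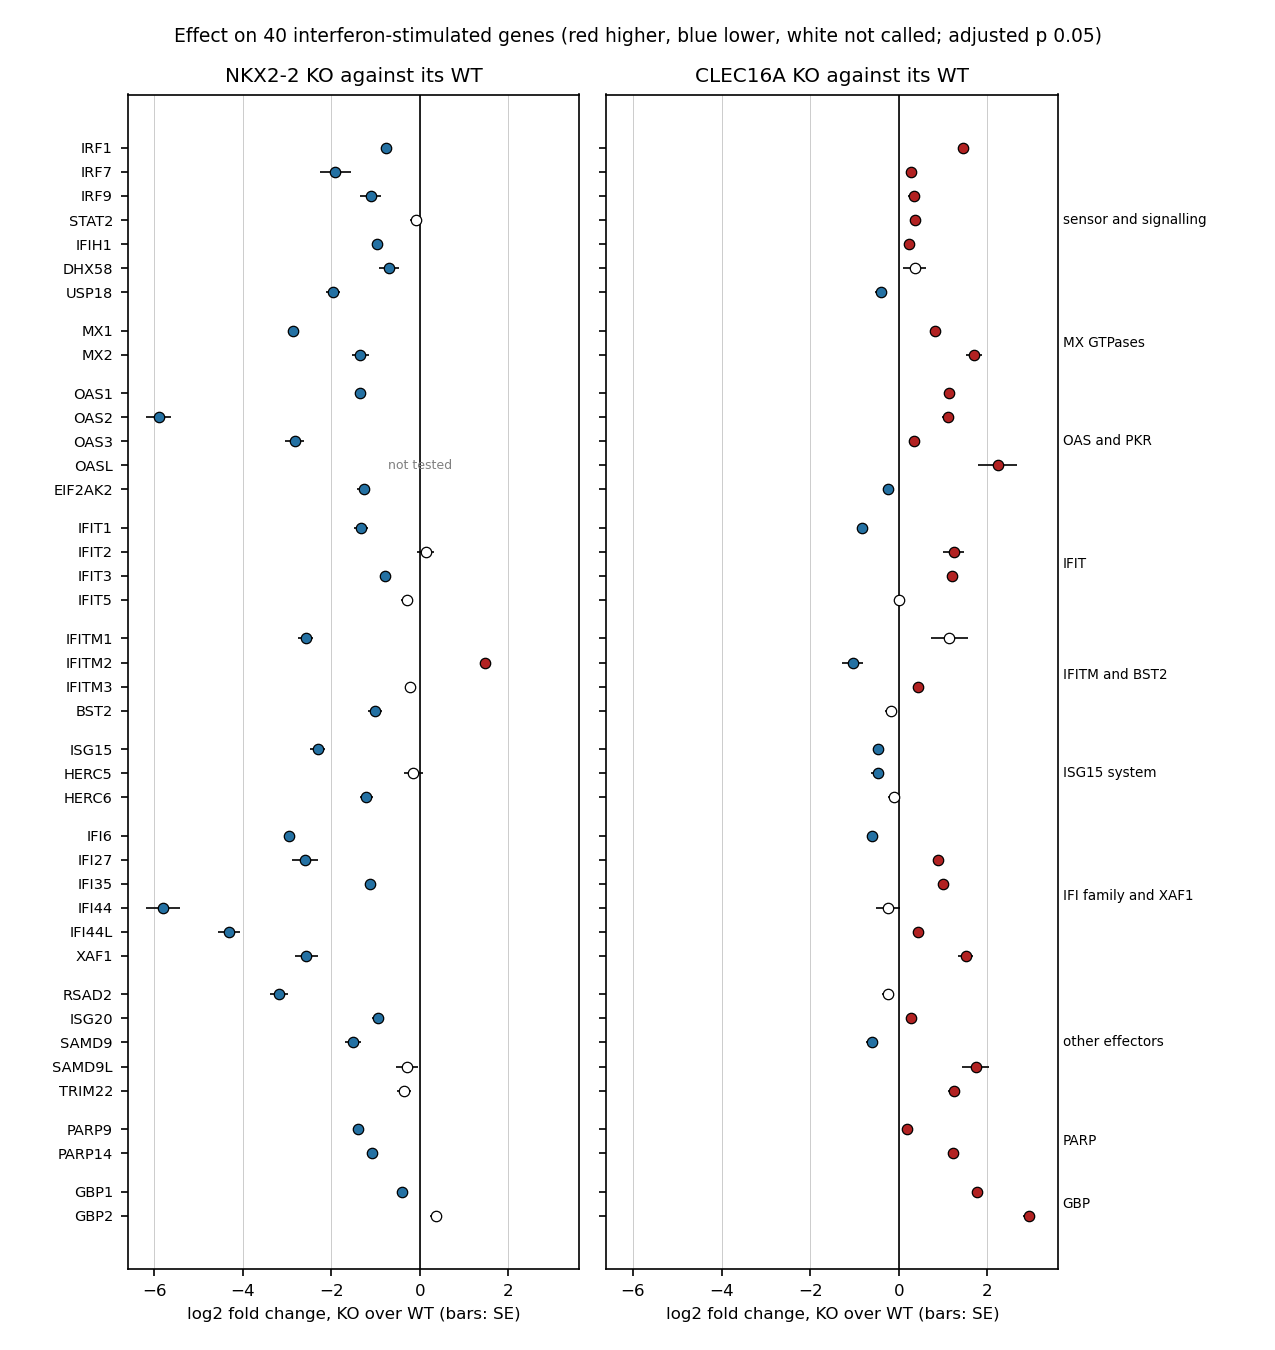
Log2 fold change of each member, KO over WT, with bars of 1 SE, in the NKX2-2 experiment (left) and the CLEC16A experiment (right), by role. Filled points passed the test (red higher, blue lower): 1 red and 30 blue in NKX2-2 KO, 25 red and 8 blue in CLEC16A KO.

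Of the 7 sensor and signalling members, 6 fell in NKX2-2 KO, and in CLEC16A KO 5 rose and 1 fell. IRF1, a transcription factor that type II interferon switches on through the GAS shown above, had 46, 41.6 and 38.5 CPM in NKX2-2 KO, against 66.5, 76.8 and 70.5 CPM in its WT. In CLEC16A libraries IRF1 had 82.3, 91 and 96.4 CPM in CLEC16A KO, against 30.8, 32.6 and 35 CPM in its WT. IRF1 thus lay below WT in every NKX2-2 KO library (-0.76 ± 0.11, adjusted p = 0.000164) and above it in every CLEC16A KO library (1.46 ± 0.08, adjusted p = 8.62e-13). USP18, which removes ISG15 from proteins and restrains the type I receptor, had 4.21, 4.6 and 4.15 CPM in NKX2-2 KO, against 15.4, 16 and 19.4 CPM in its WT. It fell in both experiments (-1.96 ± 0.15, adjusted p = 7.67e-07, and -0.41 ± 0.12, adjusted p = 0.00948), without overlap in either, though in CLEC16A KO the call was lost without both libraries numbered 3 (-0.37, adjusted p = 0.0597).

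IFIH1 (MDA5), a sensor of viral RNA, had 28.2, 28.1 and 26.3 CPM in NKX2-2 KO, against 55.5, 51.2 and 53.7 CPM in its WT. Its CLEC16A values were 44.8, 39.3 and 46.3 CPM in KO, against 36.9, 33.9 and 41.2 CPM in WT. The fall with NKX2-2 KO (-0.96 ± 0.11, adjusted p = 1.50e-05) left the groups apart, whereas in the CLEC16A experiment the groups overlapped and the rise (0.22 ± 0.09, adjusted p = 0.0469) was lost in DESeq2 (0.22, adjusted p = 0.0712), under upper-quartile scaling, in the joint fit, on the TPM scale (0.069, adjusted p = 0.646, with limma on log2(TPM + 1)) and without KO replicate 1 or 3 or WT replicate 1 or 2 (0.15 to 0.21). The CLEC16A call of IFIH1 was also lost without both libraries numbered 3. IRF9, the DNA-binding part of ISGF3, had 4.46, 2.5 and 2.6 CPM in NKX2-2 KO, against 8.12, 6.57 and 5.81 CPM in its WT. The CLEC16A experiment gave 14, 13.1 and 13.1 CPM in CLEC16A KO, against 11.4, 9.35 and 11.1 CPM in its WT. Both pairs of groups were apart, with -1.11 ± 0.24 (adjusted p = 0.00298) and 0.33 ± 0.13 (adjusted p = 0.0357), and the CLEC16A call was lost under upper-quartile scaling (0.26, adjusted p = 0.0973), in the joint fit, with no count filter, on the TPM scale (0.056, adjusted p = 0.787, with limma on log2(TPM + 1)) and without KO replicate 1 or 2 or WT replicate 2 or 3 (0.24 to 0.36). Without both libraries numbered 3 that call of IRF9 was lost too.

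STAT2, the partner of IRF9, had 63, 50.3 and 45 CPM in NKX2-2 KO, against 58.1, 60.9 and 50.4 CPM in its WT. These groups overlapped (-0.10 ± 0.13, adjusted p = 0.609). The CLEC16A libraries held 95.8, 95.3 and 98.6 CPM of STAT2 in KO, against 76.4, 75.6 and 71.3 CPM in WT, groups that lay apart (0.38 ± 0.07, adjusted p = 4.95e-05). IRF7, the factor that amplifies type I interferon genes, had 46.5, 45.9 and 47.7 CPM in CLEC16A KO, against 37.5, 38.4 and 39.8 CPM in its WT, a small rise without overlap (0.28 ± 0.08, adjusted p = 0.00442) that was lost on the TPM scale (0.054, adjusted p = 0.583, with limma on log2(TPM + 1)). In the NKX2-2 experiment IRF7 stayed at or under 2.60 CPM in every library and fell (-1.90 ± 0.35, adjusted p = 0.000963), but it got only 0.173 as many counts per TPM there as in the CLEC16A tables, so its counts are uncertain. DHX58 (LGP2), a regulator of the RNA sensors, was at most 4.20 CPM in any NKX2-2 library, with -0.70 ± 0.22 (adjusted p = 0.0252), and the call was lost in DESeq2 (-0.73, adjusted p = 0.0505), on the TPM scale (-0.34, adjusted p = 0.0597, with limma on log2(TPM + 1)) and without replicate 1 or 2 of KO or of WT (-0.73 to -0.60).

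MX1 and MX2, dynamin-like GTPases that trap viral particles, lie side by side on chromosome 21 (MX1 at chr21:41420304-41459214 in GRCh38, GENCODE v29). MX1 had 16.1, 13.5 and 14.4 CPM in NKX2-2 KO, against 105, 105 and 108 CPM in its WT. In the other experiment MX1 reached 98, 89.2 and 90.7 CPM in CLEC16A KO, against 56, 45.4 and 57.4 CPM in its WT. MX1 was 7.25-fold lower in NKX2-2 KO (-2.86 ± 0.11, adjusted p = 4.33e-09) and rose in CLEC16A KO (0.81 ± 0.08, adjusted p = 2.84e-08), with no overlap in either. MX2 had 3.49, 3.25 and 2.42 CPM in NKX2-2 KO, against 8.12, 7.83 and 7.34 CPM in its WT. For MX2 the second experiment gave 10.1, 9.44 and 9.89 CPM in CLEC16A KO, against 3.87, 2.17 and 2.98 CPM in its WT. The MX2 groups were apart too, with -1.34 ± 0.19 (adjusted p = 0.00011) in NKX2-2 KO and 1.70 ± 0.18 (adjusted p = 7.97e-08) in CLEC16A KO.

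The oligoadenylate synthetases, whose products activate RNase L, form a cluster of OAS1, OAS3 and OAS2 on chromosome 12 (chr12:112906777-112933222, chr12:112938352-112973249 and chr12:112978395-113011723). OAS2 had 0.421, 0.20 and 0.115 CPM in NKX2-2 KO, against 14.1, 16.5 and 13.6 CPM in its WT. The KO libraries held 13 OAS2 counts in all, against 861 in WT, and the fitted log2 fold change was -5.89 ± 0.28 (adjusted p = 1.75e-08). As a ratio of counts per library size, OAS2 was 61.3-fold higher in WT than in KO (95% exact interval 35.6 to 115.5, counting error only). In the CLEC16A experiment OAS2 had 13, 11.7 and 11.4 CPM in CLEC16A KO, against 5.25, 5.7 and 5.77 CPM in its WT, with no overlap (1.11 ± 0.14, adjusted p = 7.64e-07).

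OAS3 had 13.7, 9.21 and 6.46 CPM in NKX2-2 KO, against 74.4, 75 and 57.4 CPM in its WT. Its CLEC16A levels were 69.9, 61.7 and 65.7 CPM in KO, against 56.8, 46.4 and 51.7 CPM in WT. OAS3 fell in NKX2-2 KO (-2.82 ± 0.22, adjusted p = 6.56e-07) and had a small rise in CLEC16A KO (0.35 ± 0.08, adjusted p = 0.00111), which was lost on the TPM scale (0.19 with limma on log2(TPM + 1)) and in the joint fit of the 12 libraries (0.36, adjusted p = 0.0941). OAS1 had 24.3, 24.8 and 23.9 CPM in NKX2-2 KO, against 60.0, 59.5 and 67.1 CPM in its WT. Levels of OAS1 were 47.6, 41.7 and 43.6 CPM in CLEC16A KO, against 21.5, 18.6 and 20.7 CPM in its WT. Neither pair overlapped, with -1.35 ± 0.11 (adjusted p = 9.08e-07) in NKX2-2 KO and 1.13 ± 0.09 (adjusted p = 4.77e-10) in CLEC16A KO.

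OASL, a relative without that enzyme activity, had 2 counts in the NKX2-2 KO libraries together, against 45 in WT, a ratio of WT over KO of 20.8 (95% exact interval 5.44 to 177.1, counting error only). It was scarce in the CLEC16A libraries as well, with 1.71, 1.33 and 1.06 CPM in CLEC16A KO, against 0.172, 0.302 and 0.395 CPM in its WT, where it rose (2.23 ± 0.45, adjusted p = 0.000253). EIF2AK2 (PKR), the kinase that stops translation when it binds viral RNA, fell in both experiments, with -1.27 ± 0.14 (adjusted p = 1.55e-05) in NKX2-2 KO and -0.24 ± 0.07 (adjusted p = 0.00611) in CLEC16A KO. The CLEC16A call of EIF2AK2 was lost in the joint fit of the 12 libraries (-0.23, adjusted p = 0.0995) and in limma without a filter on log2(TPM + 1) (-0.33, adjusted p = 0.0549).

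The IFIT genes, which encode proteins that bind foreign RNA, sit next to each other on chromosome 10 and did not all get the same calls. IFIT1 had 8.61, 11.3 and 13.8 CPM in NKX2-2 KO, against 27.2, 27.4 and 30.1 CPM in its WT. CLEC16A libraries showed 17.8, 13.4 and 14.5 CPM in CLEC16A KO, against 26.8, 24.1 and 30.1 CPM in its WT. IFIT1 was lower in the KO libraries of both experiments, without overlap (-1.33 ± 0.16, adjusted p = 2.61e-05, and -0.83 ± 0.12, adjusted p = 3.13e-06). IFIT3, its binding partner, had 22.4, 26.1 and 26.3 CPM in NKX2-2 KO, against 41.3, 44 and 43.4 CPM in its WT. Levels of IFIT3 were 43.9, 42.2 and 53.8 CPM in CLEC16A KO, against 19.5, 22 and 19.2 CPM in its WT. IFIT3 fell with NKX2-2 KO (-0.78 ± 0.11, adjusted p = 0.000142) and rose with CLEC16A KO (1.20 ± 0.10, adjusted p = 7.95e-10). IFIT1 and IFIT3 both hold ISRE cores. IFIT2 rose in CLEC16A KO (1.24 ± 0.23, adjusted p = 0.000127) and did not pass in NKX2-2 KO (0.13 ± 0.20), and IFIT5 passed in neither (-0.29 ± 0.13 in NKX2-2 KO and 0.01 ± 0.09 in CLEC16A KO). LIPA, on the opposite strand, overlaps IFIT1, IFIT2 and IFIT3, and reads of the strands cannot be told apart here.

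The IFITM proteins block virus entry, and their genes (IFITM1, IFITM2 and IFITM3, chromosome 11) are so alike that reads may be split between them. IFITM1 had 5.66, 7.75 and 8.88 CPM in NKX2-2 KO, against 38.9, 41.4 and 53.6 CPM in its WT. Levels of IFITM1 were 39.1, 36.7 and 35.5 CPM in CLEC16A KO, against 21.1, 7.88 and 21.5 CPM in its WT. IFITM1 fell in NKX2-2 KO (-2.58 ± 0.18, adjusted p = 2.43e-07), and its groups were apart in the CLEC16A experiment too, but the change there did not pass (1.14 ± 0.42, adjusted p = 0.0966), with WT replicate 2 far below the other WT libraries. Without that library the value was 0.80 (adjusted p = 9.98e-07).

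IFITM2 was the exception of the set, with 43.9, 46.3 and 50.7 CPM in NKX2-2 KO, against 16.6, 16 and 17.8 CPM in its WT. In CLEC16A libraries IFITM2 had 1.84, 3.63 and 4.08 CPM in CLEC16A KO, against 6.25, 5.28 and 8.14 CPM in its WT. It rose 2.79-fold in NKX2-2 KO (1.48 ± 0.12, adjusted p = 7.09e-07) and fell in CLEC16A KO (-1.04 ± 0.24, adjusted p = 0.0016). The annotated locus of IFITM1 overlaps that of IFITM2 on the same strand. The CLEC16A fall of IFITM2 was lost with limma on log2(TPM + 1) (-0.60). IFITM3 had 136, 134 and 157 CPM in NKX2-2 KO, against 154, 160.0 and 183 CPM in its WT. The CLEC16A experiment gave 137, 149.8 and 132 CPM in CLEC16A KO, against 106, 95.8 and 107 CPM in its WT. It overlapped in the NKX2-2 experiment (-0.22 ± 0.11, adjusted p = 0.142) and rose in CLEC16A KO without overlap (0.44 ± 0.07, adjusted p = 1.52e-05). BST2 (tetherin), which holds budding viruses at the cell surface, fell in NKX2-2 KO (-1.00 ± 0.16, adjusted p = 0.000288) and did not pass in CLEC16A KO (-0.17 ± 0.14, adjusted p = 0.344).

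**Figure D4:**
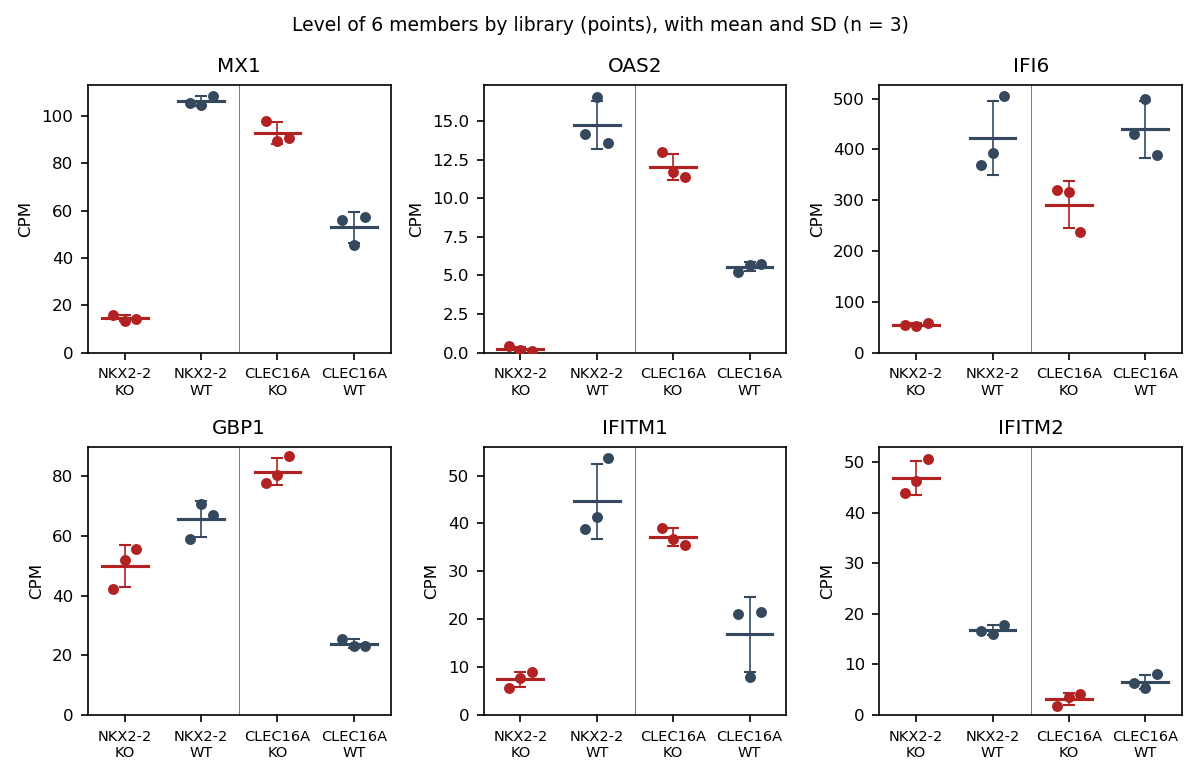
CPM of MX1, OAS2, IFI6, GBP1, IFITM1 and IFITM2 in each library (points), with the mean (line) and SD (bar) of 3 libraries, KO left of WT. IFITM2 is higher in NKX2-2 KO than in WT, while the other 5 genes are lower there.

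ISG15, a ubiquitin-like protein that is joined to other proteins and also secreted, had 13.7, 13.8 and 17.8 CPM in NKX2-2 KO, against 65.6, 63.9 and 94.8 CPM in its WT. Its CLEC16A values were 68.5, 64.9 and 59.5 CPM in KO, against 84.6, 93 and 87.5 CPM in WT. ISG15 fell in both, 4.94-fold in NKX2-2 KO (-2.31 ± 0.17, adjusted p = 4.89e-07) and to a smaller degree in CLEC16A KO (-0.46 ± 0.07, adjusted p = 1.37e-05), without overlap. HERC5, the human ligase that attaches ISG15, had 5.88, 5.9 and 5.68 CPM in CLEC16A KO, against 8.8, 7.33 and 8.2 CPM in its WT, a fall without overlap (-0.48 ± 0.15, adjusted p = 0.0121) that was lost without WT replicate 1 (-0.42, adjusted p = 0.0682) and without both libraries numbered 3 (-0.46, adjusted p = 0.0606). HERC5 did not pass in NKX2-2 KO (-0.15 ± 0.21). HERC6, its neighbour on chromosome 4 and the main ISG15 ligase of the mouse, had 8.49, 9.61 and 10.2 CPM in NKX2-2 KO, against 24.6, 19.1 and 21.6 CPM in its WT. Those groups were apart (-1.21 ± 0.14, adjusted p = 2.26e-05), whereas in CLEC16A KO the HERC6 change did not pass (-0.12 ± 0.13).

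The 6 members of the IFI group and XAF1 all fell in NKX2-2 KO, and in CLEC16A KO 4 rose and 1 fell. IFI6, a small membrane protein that limits cell death, had the highest TPM of the members in the WT libraries of each experiment, and in the NKX2-2 experiment averaged 49.3 ± 1.24 TPM in NKX2-2 KO and 374 ± 64.2 TPM in its WT (SD, n = 3 each). Its counts were 54.4, 52 and 58.3 CPM in NKX2-2 KO, against 369.5, 392 and 505 CPM in its WT. In the other experiment IFI6 reached 319.6, 316 and 238 CPM in CLEC16A KO, against 431, 500.0 and 389 CPM in its WT. IFI6 was lower in every KO library of both experiments, by 7.7-fold in NKX2-2 KO (-2.94 ± 0.13, adjusted p = 9.81e-09), with a smaller fall in CLEC16A KO (-0.60 ± 0.12, adjusted p = 0.00304).

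IFI44L had 0.421, 1.1 and 1.15 CPM in NKX2-2 KO, against 17.4, 17.8 and 18.9 CPM in its WT. For IFI44L the second experiment gave 15.1, 14.3 and 14.2 CPM in CLEC16A KO, against 11.7, 11.4 and 9.08 CPM in its WT. Neither pair overlapped, with -4.31 ± 0.24 (adjusted p = 4.71e-08) and 0.44 ± 0.13 (adjusted p = 0.00724), and the CLEC16A call was lost without WT replicate 3 (0.33, adjusted p = 0.065), without both libraries numbered 3 and in limma without a filter on log2(TPM + 1) (0.43, adjusted p = 0.0607). IFI44, which lies beside it on chromosome 1, had 4 counts in the NKX2-2 KO libraries together, against 261 in WT, a ratio of WT over KO of 60.4 (95% exact interval 23.3 to 223.2, counting error only). In CLEC16A KO, IFI44 did not pass (-0.24 ± 0.27, adjusted p = 0.5).

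IFI27, a relative of IFI6 in the mitochondrial and nuclear membranes, had 11.6, 7.1 and 6.58 CPM in NKX2-2 KO, against 54.7, 67.3 and 29.7 CPM in its WT. CLEC16A libraries showed 59.3, 49.9 and 45.6 CPM in CLEC16A KO, against 26.8, 27.9 and 29.3 CPM in its WT. WT replicate 3 of the NKX2-2 experiment was the lowest of its group, yet above each KO library (-2.59 ± 0.30, adjusted p = 7.28e-05), and IFI27 rose without overlap in CLEC16A KO (0.88 ± 0.09, adjusted p = 4.33e-08). XAF1, which promotes cell death by opposing XIAP, had 0.722, 1.2 and 0.865 CPM in NKX2-2 KO, against 5.33, 6.42 and 4.97 CPM in its WT. Its CLEC16A values were 14.2, 9.25 and 13.5 CPM in KO, against 4.07, 4.83 and 4.07 CPM in WT. XAF1 moved in opposite directions, -2.56 ± 0.25 (adjusted p = 5.57e-06) in NKX2-2 KO and 1.51 ± 0.17 (adjusted p = 1.34e-07) in CLEC16A KO. IFI35, a partner of NMI, had 25.5, 22 and 21.9 CPM in NKX2-2 KO, against 50.0, 43.7 and 57 CPM in its WT. Levels of IFI35 were 42.7, 39.8 and 41.1 CPM in CLEC16A KO, against 20.1, 19.2 and 22.4 CPM in its WT. IFI35 likewise fell (-1.12 ± 0.13, adjusted p = 2.12e-05) and rose (1.00 ± 0.09, adjusted p = 2.48e-09), with groups apart both times.

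RSAD2 (viperin), an enzyme that makes a chain-terminating nucleotide, had 1.32, 1.5 and 0.923 CPM in NKX2-2 KO, against 11.8, 11.4 and 11.3 CPM in its WT. It fell in NKX2-2 KO (-3.19 ± 0.20, adjusted p = 1.34e-07) and did not pass in CLEC16A KO (-0.25 ± 0.14). RSAD2 overlaps CMPK2 on the opposite strand, another interferon-induced gene, which also fell in NKX2-2 KO (-2.11 ± 0.14). TRIM22, a ubiquitin ligase, had 21.1, 20.2 and 20.6 CPM in CLEC16A KO, against 8.03, 10.4 and 7.74 CPM in its WT. In the NKX2-2 experiment TRIM22 had 11.7, 16.2 and 18 CPM in NKX2-2 KO, against 18.3, 18.8 and 21.4 CPM in its WT, which did not pass (-0.35 ± 0.16, adjusted p = 0.106), while the rise in CLEC16A KO did (1.24 ± 0.13, adjusted p = 2.63e-08).

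SAMD9 and SAMD9L, neighbours on chromosome 7 that restrain growth and viruses, got different calls. SAMD9 had 4.46, 5.05 and 7.15 CPM in NKX2-2 KO, against 15.7, 15.9 and 15.8 CPM in its WT. In CLEC16A libraries SAMD9 had 12.6, 10.3 and 13.4 CPM in CLEC16A KO, against 20.3, 15.6 and 19.6 CPM in its WT. SAMD9 was lower without overlap in both (-1.51 ± 0.17, adjusted p = 2.02e-05, and -0.61 ± 0.13, adjusted p = 0.000414). SAMD9L, at 5.59 CPM or less in every library, rose in CLEC16A KO (1.74 ± 0.31, adjusted p = 6.65e-05, and 1.29 without KO replicate 3) and did not pass in NKX2-2 KO (-0.29 ± 0.25). On the TPM scale its CLEC16A groups overlapped, and the rise was lost in limma without a filter on log2(TPM + 1) (0.45, adjusted p = 0.495). ISG20, an exonuclease, had 20.4, 19.5 and 22.2 CPM in NKX2-2 KO, against 34, 39.3 and 46.5 CPM in its WT. The CLEC16A experiment gave 42.2, 45 and 36.2 CPM in CLEC16A KO, against 33.4, 35.8 and 32.2 CPM in its WT. ISG20 fell in NKX2-2 KO (-0.95 ± 0.13, adjusted p = 0.000112), and its small rise in CLEC16A KO (0.28 ± 0.09, adjusted p = 0.0123) was lost under upper-quartile scaling (0.21, adjusted p = 0.061), on the TPM scale (0.097, adjusted p = 0.583, with limma on log2(TPM + 1)) and without KO replicate 1 or 2 or WT replicate 3 (0.21 to 0.27).

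PARP14, an ADP-ribosyltransferase with an ISRE core and a GAS near its start, had 44.7, 48.5 and 42.9 CPM in NKX2-2 KO, against 102, 99.4 and 88.4 CPM in its WT. In the other experiment PARP14 reached 144, 137 and 159 CPM in CLEC16A KO, against 62.1, 60.1 and 65.3 CPM in its WT. Its groups were far apart in each, with -1.09 ± 0.11 (adjusted p = 5.09e-06) and 1.23 ± 0.07 (adjusted p = 1.96e-12). PARP9, which works with DTX3L, a gene that overlaps it on the opposite strand, had 29.2, 30.1 and 33.7 CPM in NKX2-2 KO, against 80.6, 79.7 and 83.2 CPM in its WT. For PARP9 the second experiment gave 75.2, 76.5 and 74.5 CPM in CLEC16A KO, against 67.1, 63.2 and 68 CPM in its WT. PARP9 fell in NKX2-2 KO (-1.39 ± 0.11, adjusted p = 6.56e-07), and its rise of 0.19 ± 0.07 in CLEC16A KO (adjusted p = 0.0247) was lost under upper-quartile scaling (0.12, adjusted p = 0.164), in the joint fit, with no count filter, on the TPM scale (0.11, adjusted p = 0.30, with limma on log2(TPM + 1)) and without KO replicate 1 or 2 or any 1 of the WT libraries (0.15 to 0.21).

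The guanylate-binding proteins, which attack the vacuoles of intracellular microbes, rose in CLEC16A KO. GBP2 had 29.3, 33 and 41.7 CPM in CLEC16A KO, against 4.36, 4.59 and 4.58 CPM in its WT. That is 7.68-fold (2.94 ± 0.13, adjusted p = 3.41e-14), the largest rise of any member there. In the NKX2-2 experiment GBP2 had 14.5, 14.7 and 18.1 CPM in NKX2-2 KO, against 12, 12.1 and 12.5 CPM in its WT, apart but not called (0.37 ± 0.13, adjusted p = 0.0505). GBP1 had 77.7, 80.5 and 86.7 CPM in CLEC16A KO, against 25.6, 23.1 and 23 CPM in its WT. Its NKX2-2 values were 42.1, 51.9 and 55.7 CPM in KO, against 58.9, 70.8 and 67.2 CPM in WT. GBP1 rose 3.41-fold in CLEC16A KO (1.77 ± 0.08, adjusted p = 3.10e-14) and had a small fall in NKX2-2 KO (-0.39 ± 0.13, adjusted p = 0.0286), which was lost under upper-quartile scaling (-0.33, adjusted p = 0.0614), in limma without a filter on log2(TPM + 1) (-0.37, adjusted p = 0.0886) and without KO replicate 1 or 2 or WT replicate 2 or 3 (-0.43 to -0.30).

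**Figure D5:**
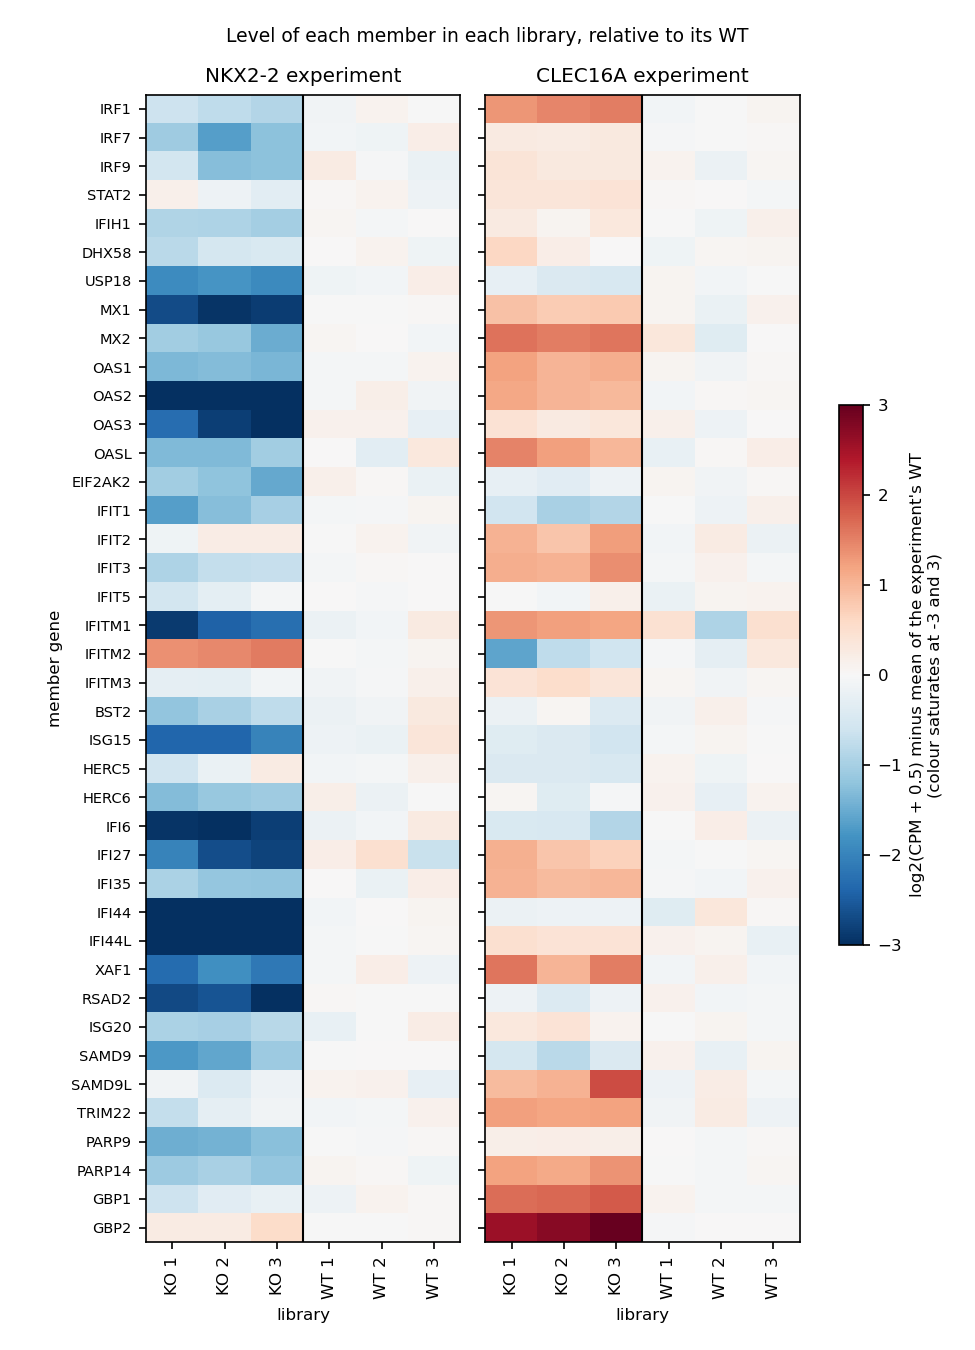
Level of each member (rows) in each library (columns) as log2(CPM + 0.5) minus the mean of the WT libraries of the same experiment, blue lower and red higher, with colour saturating at -3 and 3. OAS2, IFI44 and IFI44L are the darkest blue in the NKX2-2 KO libraries, GBP2 is the darkest red in the CLEC16A KO libraries, and WT columns are pale apart from IFITM1 in CLEC16A WT replicate 2.

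Both knockout effects were compared directly, as the NKX2-2 effect minus the CLEC16A effect in a fit of the 12 libraries. Each knockout was measured only in its own experiment, so knockout and experiment cannot be told apart in this difference. The WT groups were unlike too: mesenchyme markers summed to 2762 to 3067 CPM in NKX2-2 WT and to 176.2 to 187.5 CPM in CLEC16A WT. The knockout effects differed for 37 of the 40 members, 36 with the NKX2-2 effect below the CLEC16A effect and 1, IFITM2, with it above. Of all 20494 genes tested, 38.2% differed, 17.8% higher and 20.4% lower. The median difference of the members was -1.99, beside 0.04 for all genes, and upper-quartile scaling, which moves that of all genes to 0.16 and turns the calls among all genes to 4703 higher and 3517 lower, left the members' median at -1.87. OAS2 had the largest difference, -7.00 ± 0.31, and IFI44 (-5.58 ± 0.52), IFI44L (-4.74 ± 0.27) and XAF1 (-4.06 ± 0.31) were also far apart, while IFIT1 (-0.49 ± 0.20, adjusted p = 0.0634), IFIT5 and HERC5 did not pass.

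Opposite calls were made for 19 members: 18 fell in NKX2-2 KO and rose in CLEC16A KO, and IFITM2 did the reverse. The 18 include IRF1, MX1, MX2, OAS1, OAS2, OAS3, IFIT3, XAF1, PARP14 and GBP1. A further 6 fell in both: USP18, EIF2AK2, IFIT1, ISG15, IFI6 and SAMD9. Among all genes tested, 16.8% fell in NKX2-2 KO, and 23.7% rose and 21.3% fell in CLEC16A KO. The share of all genes with opposite or shared calls was not counted, so these counts of members have no background beside them. Of these opposite or shared calls, those of IRF7, IRF9, IFIH1, OAS3, IFI44L, ISG20, PARP9, IFITM2, USP18 and EIF2AK2 in CLEC16A KO and that of GBP1 in NKX2-2 KO were lost under the alternatives given above. Among the 22 members with an ISRE core in a listed promoter, 11 rose and 6 fell in CLEC16A KO (median 0.21), and among the 8 without, 7 rose and 0 fell (median 1.06). In NKX2-2 KO the medians were -1.36 with a core (19 of 22 fell) and -1.12 without (6 of 8 fell). Of the 9 members with a GAS, 9 fell in NKX2-2 KO, and 7 rose and 0 fell in CLEC16A KO (medians -1.12 and 1.00). Of the 21 without, 16 fell in NKX2-2 KO, and 11 rose and 6 fell in CLEC16A KO (medians -1.27 and 0.19). These splits are descriptions with no test.

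Other genes of the pathway were counted from fixed lists, to be read against the 33.4% of all genes called in NKX2-2 KO and the 45.0% called in CLEC16A KO. None of 21 interferon genes had enough counts to be tested, and the list stayed at or under 0.82 summed CPM in every library, with IFNB1 and IFNG at 0 counts throughout, where 3 counts, the limit that a count of 0 allows, equal 0.086 to 0.181 CPM. Of the interferon receptor chains, 4 of 5 tested fell in NKX2-2 KO and 4 of 6 tested rose in CLEC16A KO. IFNGR1, of the type II receptor, had 129, 138 and 156 CPM in CLEC16A KO, against 71.7, 67.8 and 72.2 CPM in its WT (1.00 ± 0.07, adjusted p = 1.13e-10). In NKX2-2 KO, IFNLR1, of the type III receptor, fell (-0.86 ± 0.17, adjusted p = 0.00138). Of 5 tested JAK-STAT genes, 3 fell in NKX2-2 KO, and in CLEC16A KO 2 rose and 1 fell. Among them STAT3, which serves cytokines of the interleukin-6 family, fell in NKX2-2 KO (-0.91) and rose in CLEC16A KO (0.97). JAK1 fell in NKX2-2 KO (-0.34) and was not called in CLEC16A KO (0.10).

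Among 12 tested sensors and adaptors, 1 rose and 5 fell in NKX2-2 KO, with the smallest p for UNC93B1 (-2.27 ± 0.13), a chaperone of endosomal Toll-like receptors, and IKBKE (-1.91 ± 0.14), a kinase that activates IRF3. In CLEC16A KO 5 rose, among them TICAM1 (0.96 ± 0.09), the adaptor of TLR3, and 2 fell. These counts, and those of the negative regulators that follow, are of few genes and not far above the shares among all genes. Among 9 tested negative regulators 1 rose and 4 fell in NKX2-2 KO, with SOCS1, an inhibitor of JAK kinases, as the rise (1.03 ± 0.13). In CLEC16A KO 4 rose, SOCS3 (0.99 ± 0.10) among them, and 2 fell. Of 42 tested other interferon-induced genes, 1 rose and 26 fell in NKX2-2 KO (median -0.56), with the smallest p for CMPK2 (-2.11 ± 0.14) and DDX60 (-1.75 ± 0.13). In CLEC16A KO 34 rose and 1 fell (median 0.73), with the smallest p for APOL6 (2.19 ± 0.08), GBP3 (2.28 ± 0.09) and APOL1 (2.15 ± 0.11). The gene outside each majority was the same, SLFN5, with 0.55 in NKX2-2 KO and -0.53 in CLEC16A KO; it was named after its values were seen.

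In bulk libraries, fewer cells of a type and less RNA per cell cannot be told apart, and levels of cell type markers differed between KO and WT as well. Summed mesenchyme markers were 7101, 8149 and 7842 CPM in NKX2-2 KO, against 3067, 2912 and 2762 CPM in WT, and all 10 rose. In CLEC16A KO they were 53.2, 57.8 and 62.8 CPM, against 179.0, 187.5 and 176.2 CPM in WT, with 7 of 10 lower. Epithelium markers went the other way, 4 of 6 lower in NKX2-2 KO and 6 of 6 higher in CLEC16A KO. Endocrine markers summed to 1746, 1565 and 1588 CPM in NKX2-2 KO, against 4007, 4090 and 4458 CPM in WT (2 higher and 7 lower of 13), and to 16330, 17170 and 14860 CPM in CLEC16A KO, against 28470, 31520 and 29790 CPM in WT (13 of 13 lower). Summed endocrine markers were thus lower in both knockouts, though 2 of the 13 were higher in NKX2-2 KO. The endothelium list gave 4 higher and 2 lower of 6 tested in NKX2-2 KO, and 1 higher and 2 lower of 5 in CLEC16A KO. Of all genes tested, 33.4% were called in NKX2-2 KO and 45.0% in CLEC16A KO. The marker lists are small, and the endothelium count in CLEC16A KO is not far above that share.

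The defining immune cell markers were near 0, but not every marker on the list was. PTPRC (CD45), which marks blood cells, had 12 counts in NKX2-2 KO, against 2 in WT, and 0 in CLEC16A KO, against 8 in WT. LILRA4, a marker of plasmacytoid dendritic cells, had 0 counts in all 12 libraries. AIF1, a macrophage marker, had 894 counts in CLEC16A KO, against 2540 in its WT. Of the 12 immune markers, 2 were tested in the NKX2-2 experiment (CD14 was higher) and 3 in the CLEC16A experiment (AIF1 was lower). The summed immune markers ranged from 3.10 to 4.39 CPM in NKX2-2 KO, against 1.81 to 2.21 CPM in WT, and from 14.4 to 15.8 CPM in CLEC16A KO, against 26.2 to 35.6 CPM in WT. These sums rest on the counts, in which CD68, a macrophage marker, is at or near 0, while its deposited TPM averaged 4.20 in NKX2-2 KO and 39.0 in its WT, and 109.7 in CLEC16A KO and 57.8 in its WT. CD68 on the TPM scale was thus lower in NKX2-2 KO and higher in CLEC16A KO, opposite to the summed counts and to the calls of CD14 and AIF1. It is 1 of the 12 markers, and TPM of the others are not given here. The part of these cell types in the members' levels was not tested. Without both libraries numbered 3, 32 members fell and 1 rose in NKX2-2 KO, and 22 rose and 6 fell in CLEC16A KO.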

How the data were processed

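Bulk RNA-seq was measured in 12 libraries, grouped by their titles. The submitters' processing notes name fastp (0.22.0), HISAT2 (2.2.1), StringTie (2.1.7) and the build hg38. How reads were counted, with which annotation and with or without strand, is not given in the sources used here. The authors deposited, for each experiment, raw counts per gene and TPM values. Rows of the Y copies of 45 pseudoautosomal genes were dropped. TPM columns of the NKX2-2 experiment sum to between 414469 and 472406, so TPM values are not compared between experiments.

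Each experiment was fitted alone with edgeR 4.0.16 (R 4.3.3; TMM scaling, filterByExpr, robust quasi-likelihood F test), and the difference of effects was fitted over the 12 libraries. The SE was taken as the size of the log2 fold change divided by the root of F. The fits were tested on simulated counts, with 100 genes changed 2-fold and 100 changed 4-fold. Of the calls, 6.6% were false in the NKX2-2 fit, 5.39% in the CLEC16A fit and 4% for the difference. The 2-fold changes were recovered at 85%, 93% and 74%, and the 4-fold changes at 99%, 100% and 94%. For the difference, only the NKX2-2 KO libraries were changed. The members, gene lists and tests were chosen with earlier results of these data known. Values of every library are given for members whose higher group averages at least 5 CPM and that have the 2 smallest p of their role in an experiment, or whose effects differ between experiments with opposite signs. OASL, which lies below that level, is given for the CLEC16A libraries outside this rule. From other lists up to 3 genes with the smallest p are named; 1 further gene is not reported here. Intervals cover counting error only.

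Of the 40 members, 21 overlap another annotated gene in GENCODE v29, 8 of them on the same strand, and reads of these genes cannot be separated here. Alternatives tried were RLE and upper-quartile scaling, DESeq2 1.42.0, no count filter, a replicate block, a joint fit, limma 3.58.1 on TPM with pseudocounts of 1 and 0.1, and leaving libraries out. Same-numbered libraries had deviations correlating at 0.18, 0.062 and 0.465 in the NKX2-2 experiment and at 0.0092, 0.0066 and -0.046 in the CLEC16A experiment. By the value of 0.465, the libraries numbered 3 of the NKX2-2 experiment deviated alike. There KO replicate 3 correlated at -0.30 with WT replicate 1 and at -0.30 with WT replicate 2. Deviations within a group add up to 0, so these negative values follow from the positive one and add nothing to it. No label says that the numbers pair the samples, so the main fits took no pairs, and fits with the number as a block are given below.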

Additional observations from a re-analysis of the deposited data

Results flagged for a closer look

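The effect of NKX2-2 KO differed from that of CLEC16A KO, by the test of the difference itself (adjusted p under 0.05, edgeR), for 37 members, given here as the log2 difference (NKX2-2 effect minus CLEC16A effect). Among sensors and signalling genes it was -2.21 for IRF1, -2.18 for IRF7, -1.44 for IRF9, -0.46 for STAT2, -1.17 for IFIH1, -1.05 for DHX58 and -1.55 for USP18. The STAT2 call was lost under upper-quartile scaling (-0.34, adjusted p = 0.0647) and without NKX2-2 KO replicate 2 (-0.43) or WT replicate 2 (-0.41), and that of DHX58 without CLEC16A KO replicate 1 (-0.82, adjusted p = 0.0602). MX1 had -3.66 and MX2 had -3.04. In the OAS and PKR group it was -2.47 for OAS1, -7.00 for OAS2, -3.16 for OAS3, -6.45 for OASL and -1.02 for EIF2AK2. The OASL value rests on 2 counts in NKX2-2 KO, so its fitted size depends on the prior count and is no bound. IFIT2 had -1.10 and IFIT3 had -1.97. It was -3.71 for IFITM1, 2.53 for IFITM2, -0.65 for IFITM3 and -0.82 for BST2. For ISG15 it was -1.84 and for HERC6 -1.08. In the IFI family it was -2.34 for IFI6, -3.47 for IFI27, -2.11 for IFI35, -5.58 for IFI44, -4.74 for IFI44L and -4.06 for XAF1. Other effectors had -2.93 for RSAD2, -1.23 for ISG20, -0.88 for SAMD9, -2.01 for SAMD9L and -1.58 for TRIM22. PARP9 had -1.57, PARP14 -2.31, GBP1 -2.16 and GBP2 -2.57. IFITM2 alone among the 37 had a positive difference. Each knockout had its own experiment, so knockout and experiment cannot be told apart in these differences.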

How the results depend on the processing

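Of the directions and calls of members, none that passed the test turned round under any alternative run. In NKX2-2 KO, 2 members rose, in place of 1, under upper-quartile scaling, with the replicate block, in the joint fit of the 12 libraries and without KO replicate 1, GBP2 being the added one; leaving out single libraries gave 1 to 2. Members that fell numbered 29 to 33 over the alternatives. In CLEC16A KO 18 to 25 rose and 6 to 8 fell. With limma on log2(TPM + 1) and no filter, 3247 genes were called in NKX2-2 KO, against 5824. The stricter ISRE, with CT after the core, lay in promoters of 14 members, against 22.

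The members whose direction changed had not been called. Leaving out single libraries, HERC5 ranged over -0.41 to 0.018 and STAT2 over -0.26 to 0.0034 in NKX2-2 KO, and HERC6 over -0.23 to 0.0035 and IFIT5 over -0.085 to 0.070 in CLEC16A KO. IFIT5 was also below 0 there under upper-quartile scaling (-0.059), without both libraries numbered 3 (-0.0048), and with limma on log2(TPM + 1), with or without the filter (-0.097), and on log2(TPM + 0.1) (-0.10). The causes were not tested.

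With the replicate number as a block, 8037 genes were called in NKX2-2 KO (members: 2 higher, 33 lower), 8763 in CLEC16A KO (25 and 8) and 8889 for the difference of effects (1 and 37). Counts limit OASL, IFI44 and OAS2 in NKX2-2 KO, where 2, 4 and 13 reads were counted.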

Other observations

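Counts and TPM disagreed for some immune markers. CD68, whose deposited TPM are given above, had 6 counts in CLEC16A KO and 8 in its WT, and 0 in NKX2-2 KO and 1 in its WT. AIF1 had 0 counts in both NKX2-2 groups, against 894 in CLEC16A KO and 2540 in its WT. CXCL10, a chemokine induced by interferon, averaged 19.3 CPM in NKX2-2 KO and 34.1 CPM in its WT, and 31.2 CPM in CLEC16A KO and 6.62 CPM in its WT; it was named after its values were seen.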
